A study of Homo sapiens with 2 samples.

Results

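Matrix metalloproteinases (MMPs) are zinc-dependent endopeptidases that cut collagens, laminins, proteoglycans and other proteins around the cell. They are made as inactive precursors and are secreted or held at the cell surface. Tissue inhibitors of metalloproteinases (TIMPs) bind the active site of MMPs and block it. In skin and its tumors these enzymes are known for the turnover of the basement membrane and of the collagen below it. The genes examined here are 7 MMP genes and 3 TIMP genes, chosen by name from the 44591 genes of the count table. They are MMP1 (a collagenase), MMP3 and MMP10 (stromelysins), MMP2 and MMP9 (gelatinases), MMP14 and MMP15 (membrane-type MMPs), and TIMP1, TIMP2 and TIMP3. All 10 were found, and each had at least 10 reads summed over both libraries, as did 19840 genes in all.

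The study knocked down LINP1, a long noncoding RNA, in HSC-1, a cell line from a cutaneous squamous cell carcinoma (cSCC), and asked which genes respond. Cells of the same line received control oligonucleotides (siNC) or siRNA against LINP1 (siLINP1), with no other treatment or genetic change named. The sample labels place transfection at 70% confluency, a first 6 h without serum and then 24 h in medium with 10% serum, while the methods of the study give another confluency and time. Each condition gave 1 library of total RNA, so no difference below has a replicate check, no p-value is given, and all intervals cover counting error only. For cells in bulk, fewer cells that express a gene and less RNA per cell cannot be told apart.

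The siNC library held 18829544 counted reads and the siLINP1 library 15383081. LINP1 itself had 167 and 23 reads (log2 fold change -2.65). Levels are given as RPKM, the reads of a gene scaled to its length in kilobases and to the library total. Differences are log2 fold changes of siLINP1 over siNC after median-of-ratios scaling, with the 95% interval of the split of the reads. Of 15 markers of squamous keratinocytes, 9 stayed below 1 RPKM in siNC and siLINP1 alike, among them TP63 (6 and 8 reads) and IVL (1 and 0 reads). The highest were the integrin genes ITGA6 and ITGB4, above 40 RPKM in both. Below them came SFN (10.7 and 6.82 RPKM) and KRT14 (7.89 and 3.46 RPKM), both lower in siLINP1 by more than 1.5-fold. Of the 14 markers with at least 10 reads, 3 were higher and 3 lower past that limit, against 14.4% and 13.0% of all genes. The 15 fibroblast and mesenchymal genes summed to 2076 RPKM in siNC and 1702 RPKM in siLINP1, nearly all of it from VIM (1519 and 1278 RPKM) and SPARC (505 and 382 RPKM). Of these 15 genes, 6 lay below 1 RPKM in siNC and siLINP1, and THY1 had 1 and 0 reads. Of the 14 mesenchymal genes with at least 10 reads, 11 were lower in siLINP1, as were 10353 of all 19840 genes with that many reads. Under scaling by the total count, 10 of the 14 and 8820 of all 19840 genes were lower. Of 7 macrophage genes, 6 were under 1 RPKM in both libraries, and the leukocyte gene PTPRC had 1 and 4 reads. The other gene, CD68, had 48.7 RPKM in siNC and 45.8 in siLINP1. Of the 5 with at least 10 reads, 4 were lower in siLINP1 and 1 was higher. The higher gene was CD163, with 2 and 17 reads (log2 fold change 3.30, 95% interval 1.22 to 6.45). All 5 endothelial genes were under 1 RPKM in both libraries.

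Of the 10 genes, MMP10 was higher and MMP15 was lower in siLINP1 by more than 1.5-fold, as were 14.4% and 13.0% of all genes kept, and their upstream sequences are shown for that reason. RefSeq promoter sequences of the GRCh38.p14 assembly were matched by symbol for 5 of the 10 genes, namely MMP10, MMP14, MMP15, TIMP1 and TIMP3, and not for MMP1, MMP2, MMP3, MMP9 and TIMP2. The sequences below are the 250 bases before the transcription start, 5′ to 3′ along the strand of the gene. MMP10 lies on the minus strand (chr11:102780629-102780878) and MMP15 on the plus strand (chr16:58025504-58025753). Capitals mark matches to 4 motifs searched on both strands.
MMP10: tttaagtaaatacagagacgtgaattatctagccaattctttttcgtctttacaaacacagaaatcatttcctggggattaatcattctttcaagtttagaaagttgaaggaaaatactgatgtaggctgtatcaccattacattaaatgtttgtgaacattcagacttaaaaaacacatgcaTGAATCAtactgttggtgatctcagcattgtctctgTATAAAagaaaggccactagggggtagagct
MMP15: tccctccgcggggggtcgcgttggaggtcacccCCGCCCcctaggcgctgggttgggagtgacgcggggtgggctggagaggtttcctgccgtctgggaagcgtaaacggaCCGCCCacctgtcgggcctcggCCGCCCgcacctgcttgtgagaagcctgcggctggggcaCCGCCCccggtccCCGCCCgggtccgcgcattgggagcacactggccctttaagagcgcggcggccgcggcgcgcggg

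The motifs were TGANTCA for AP-1, the ETS site AGGAAG, the GC box GGGCGG and the TATA box TATAAA. The N stands for any base, so TGANTCA takes in more forms than a fixed AP-1 site would. None of the motifs overlapped another in these 2 sequences. They were searched from 250 bases before to 50 bases after the start. MMP10 held a match to TGANTCA, with A at the N (TGAATCA), 67 bases upstream. It also held a TATA box 31 bases upstream, and no GC box. MMP15 held 5 GC boxes, the nearest 65 bases upstream, and none of the other motifs. Of all 35116 promoters of this length, 7.71% held TGANTCA with any base at the N, 11.5% the TATA box, 44.95% the GC box and 33.6% the ETS site. The GC content was 36.3% for MMP10 and 75.3% for MMP15, against a median of 58.7% over all promoters. Among the other 3 promoters, MMP14 held 1 GC box, TIMP3 held 5, and TIMP1 held 2 GC boxes and 1 ETS site. A match of letters is a description and does not show that a factor binds there.

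The 10 genes spanned a wide range of levels. TIMP1 was the most abundant, with 233.7 RPKM in siNC and 189.7 in siLINP1. It ranked 238 and 281 by RPKM among the 44591 genes. MMP2 followed with 162.3 and 119.2 RPKM, and MMP14 with 59.8 and 65.8. TIMP2 had 51.2 RPKM in siNC and 49.0 in siLINP1, and TIMP3 had 47.5 and 49.6. The order of TIMP2 and TIMP3 was apart in siNC by their 95% counting intervals, 49.6 to 53.0 RPKM for TIMP2 and 46.2 to 48.8 for TIMP3, but the intervals overlapped in siLINP1. MMP9 had 7.71 and 9.80 RPKM and MMP15 had 3.51 and 2.02. The chromosome 11 genes came last, with MMP1 at 1.27 and 0.981 RPKM, MMP3 at 0.613 and 0.648, and MMP10 at 0.332 and 0.998. The intervals of MMP3 and MMP10 overlapped in siNC. In siLINP1 those of TIMP3 and TIMP2, of MMP10 and MMP1 and of MMP1 and MMP3 overlapped. Every other pair of neighbours in the order was apart.

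**Figure D1:**
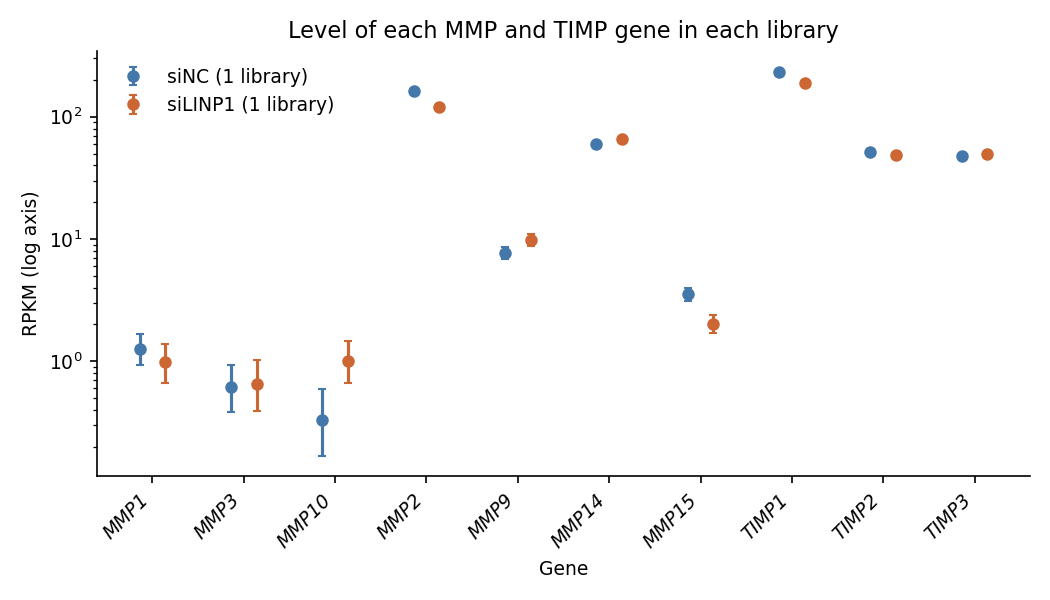
RPKM on a log axis for each of the 10 genes, with siNC in blue and siLINP1 in orange, 1 library each, and bars for the 95% Poisson interval of the read count. TIMP1, MMP2, MMP14, TIMP2 and TIMP3 lie above 47 RPKM in both libraries, and MMP1, MMP3 and MMP10 lie below 1.3 RPKM.

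Most of the signal of the 7 MMP genes examined came from a pair of genes. MMP2 and MMP14 together made up 94.3% of the summed RPKM of the 7 MMP genes in siNC and 92.8% in siLINP1. Within that sum, MMP2 went from 68.9% to 59.8% and MMP14 from 25.4% to 33.0%. The summed RPKM of the 7 MMP genes was 235.5 in siNC and 199.5 in siLINP1, and that of the 3 TIMP genes was 332.4 and 288.3. The ratio of the sums was therefore 0.709 in siNC and 0.692 in siLINP1 for these 7 MMP genes. All 24 MMP genes of the count table summed to 262.6 RPKM in siNC and 236.8 in siLINP1. Against the same TIMP sums, the ratio for all 24 was higher in siLINP1, so its direction depends on the MMP genes chosen. TIMP1 made up 70.3% of the TIMP sum in siNC and 65.8% in siLINP1.

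With 1 of 10 genes higher and 1 lower past 1.5-fold, the shares were near the 14.4% and 13.0% of all genes kept. By more than 2-fold, 1 was higher and 0 were lower, against 6.74% and 5.30% of all genes. The counting interval lay above 0 for 2 genes and below 0 for 4, against 23.0% and 25.6% of all genes (4557 and 5081 genes). The median log2 fold change of the 10 genes was -0.08, and that of all genes kept was -0.02. Scaling by the total count raised every value by the same step and gave medians of 7.65e-05 and 0.06. On that scale MMP3 and TIMP3 changed sign, so that 5 genes were higher and 5 lower in place of 3 and 7. The interval then lay above 0 for 4 genes, MMP14 and TIMP3 added, and below 0 for 3, with that of TIMP2 reaching 0.0085, and over all genes for 5643 and 3914.

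**Figure D2:**
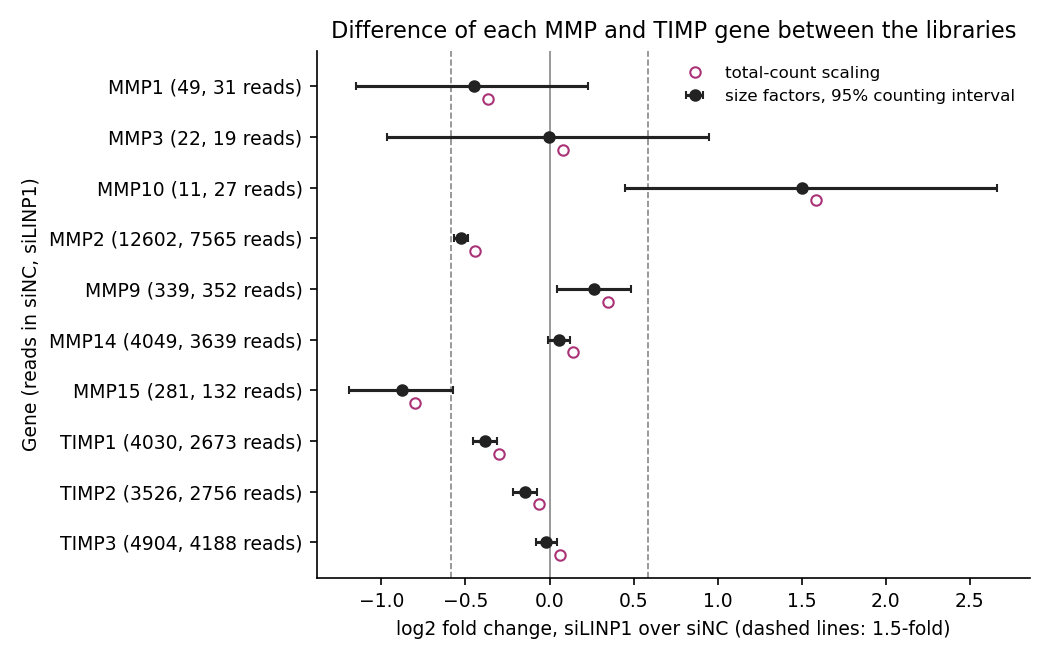
log2 fold change of siLINP1 over siNC for each of the 10 genes, with 1 library per condition. Black points carry the 95% counting interval under median-of-ratios scaling, open points show scaling by the total count, and dashed lines mark 1.5-fold, which MMP10 (1.505) passed upward and MMP15 (-0.88) downward.

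MMP1, MMP3 and MMP10 lie close together on the minus strand of chromosome 11. The count table places MMP10 from 102641233 to 102651359, MMP1 from 102660641 to 102668966 and MMP3 from 102706528 to 102714420 of GRCh37. MMP10, which encodes stromelysin-2, was counted 11 times in siNC and 27 times in siLINP1. It was 2.84-fold higher in siLINP1 (log2 fold change 1.505, 95% interval 0.45 to 2.66), which ranked 629 from the top among the genes kept. The count is small: among 2938 genes whose summed reads lay from 30 to below 100, 9.97% were higher by more than 2-fold. A pseudocount of 5 on the scaled counts lowered the value for MMP10 to 1.16.

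For the other two genes of this trio the interval included 0. MMP1, the interstitial collagenase that cuts fibrillar collagen, had 49 and 31 reads (log2 fold change -0.45, 95% interval -1.15 to 0.23). MMP3, or stromelysin-1, which also cuts the precursors of other MMPs, had 22 and 19 reads (log2 fold change -0.002, 95% interval -0.97 to 0.95), which turned positive (0.08) under scaling by the total count. At this depth the interval did not exclude a difference of just under 2-fold in MMP3, in either direction. MMP3 and MMP10 are close paralogs, and how reads that fit both were assigned is not given in the sources used here. WTAPP1, a pseudogene on the opposite strand that spans MMP1 and reaches into MMP3, had 0 and 1 reads.

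The gelatinases, which cut denatured collagen and the type IV collagen of basement membranes, differed in opposite directions. MMP2 (chromosome 16, 55512742 to 55540603, plus strand) had 12602 siNC reads and 7565 siLINP1 reads. The siLINP1 library was at 0.694 of the siNC level (log2 fold change -0.53, 95% interval -0.57 to -0.49), just inside the 1.5-fold limit. MMP2 ranked 2976 from the bottom among the 19840 genes kept. MMP9 (chromosome 20, 44637547 to 44645200, plus strand) had 339 and 352 reads (log2 fold change 0.26, 95% interval 0.04 to 0.48). The annotation gives an antisense gene, SLC12A5-AS1, that shares 430 of the 2336 exonic bases of MMP9, so reads of the pair cannot be told apart without the strand, and the strand setting of the counting is not given in the sources used here. The antisense gene that the count table lists across MMP9 had 24 and 23 reads.

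The membrane-type enzymes act at the cell surface, where MMP14 is known to activate the precursor of MMP2. MMP14 (chromosome 14, 23305742 to 23316809, plus strand) had 4049 siNC reads and 3639 siLINP1 reads. Its log2 fold change was 0.06 with an interval that included 0 (-0.01 to 0.12), but the interval lay above 0 under each of the other 3 scalings tried (0.14 by the total count, 95% interval 0.07 to 0.20). MMP15 (chromosome 16, 58059470 to 58080805, plus strand) had 281 and 132 reads. It stood at 0.543 of the siNC level, a log2 fold change of -0.88 (95% interval -1.19 to -0.58), and ranked 1354 from the bottom among the genes kept. Among 3847 genes whose summed reads lay from 300 to below 1000, 7.77% were lower by more than 1.5-fold. MMP15 passed 1.5-fold under every scaling and pseudocount tried, with values from -0.88 to -0.80.

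Of the inhibitors, TIMP1 differed most. TIMP1, which inhibits most secreted MMPs but membrane-type enzymes poorly, had 4030 siNC reads and 2673 siLINP1 reads. It was lower in siLINP1 by less than 1.5-fold (log2 fold change -0.38, 95% interval -0.45 to -0.31). TIMP2, which together with MMP14 forms the complex that activates MMP2 and at higher amounts blocks it, had 3526 and 2756 reads (log2 fold change -0.15, 95% interval -0.22 to -0.07). TIMP3, which binds to the matrix and also inhibits ADAM proteases, had 4904 and 4188 reads (log2 fold change -0.02, 95% interval -0.08 to 0.04). Scaling by the total count gave -0.30 for TIMP1, -0.06 for TIMP2 and 0.06 for TIMP3.

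MMP2 and TIMP1 were lower in siLINP1 together with the mesenchymal marker genes, whose median log2 fold change was -0.34 over the 14 with at least 10 reads. Of these 14, 1 was higher and 4 were lower by more than 1.5-fold, against 14.4% and 13.0% of all genes kept. The 14 squamous keratinocyte markers with at least 10 reads also had a median below 0 (-0.19), with 3 higher and 3 lower by more than 1.5-fold. The part of either set of markers in the values of MMP2 and TIMP1 was not tested.

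Each TIMP gene examined overlaps other genes in the count table. TIMP1 (chromosome X, 47441690 to 47446190, plus strand) lies within SYN1 and TIMP3 (chromosome 22, 33196802 to 33259028, plus strand) within SYN3, which encode synapsins and run on the opposite strand. SYN1 had 3 and 8 reads and SYN3 had 36 and 40 reads in siNC and siLINP1, and neither shares an exonic base with the TIMP gene inside it. TIMP2 (chromosome 17, 76849059 to 76921472, minus strand) contains CEP295NL on its own strand, with 36 and 30 reads. An antisense gene inside TIMP2 had 236 and 208 reads and shares 367 of the 6209 exonic bases of TIMP2. TIMP4, inside SYN2, had 2 and 3 reads, and SYN2 had 2 and 7.

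The reads of an enzyme gene per read of an inhibitor gene can be compared within each library, where scaling has no part. These are ratios of RNA reads, and the amounts and activity of the proteins were not measured here. The reads of MMP9 per read of TIMP1 went from 0.0841 in siNC to 0.132 in siLINP1, a log2 change of 0.65 (95% interval 0.42 to 0.88). Those of MMP10 per read of TIMP1 changed by 1.89 on the log2 scale (95% interval 0.83 to 3.05), from 0.00273 to 0.0101. Against TIMP1, the intervals for MMP1 (-0.77 to 0.61) and MMP3 (-0.59 to 1.34) included 0. TIMP1 was thus lower relative to MMP9 and MMP10.

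For the activation complex of MMP2, the ratios moved in both directions. The reads of MMP2 per read of TIMP2 went from 3.57 to 2.74, a log2 change of -0.38 (95% interval -0.46 to -0.30). Those of MMP14 per read of TIMP2 went from 1.15 to 1.32, a log2 change of 0.20 (95% interval 0.10 to 0.30). MMP14 over TIMP3 changed by 0.07 (95% interval -0.01 to 0.16), and MMP15 over TIMP2 by -0.73 (95% interval -1.05 to -0.42). Within the chromosome 11 trio, MMP10 over MMP3 went from 0.500 to 1.42, a log2 change of 1.51 with a wide interval of 0.03 to 3.01. MMP1 over MMP3 changed by -0.45 (95% interval -1.64 to 0.75).

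**Figure D3:**
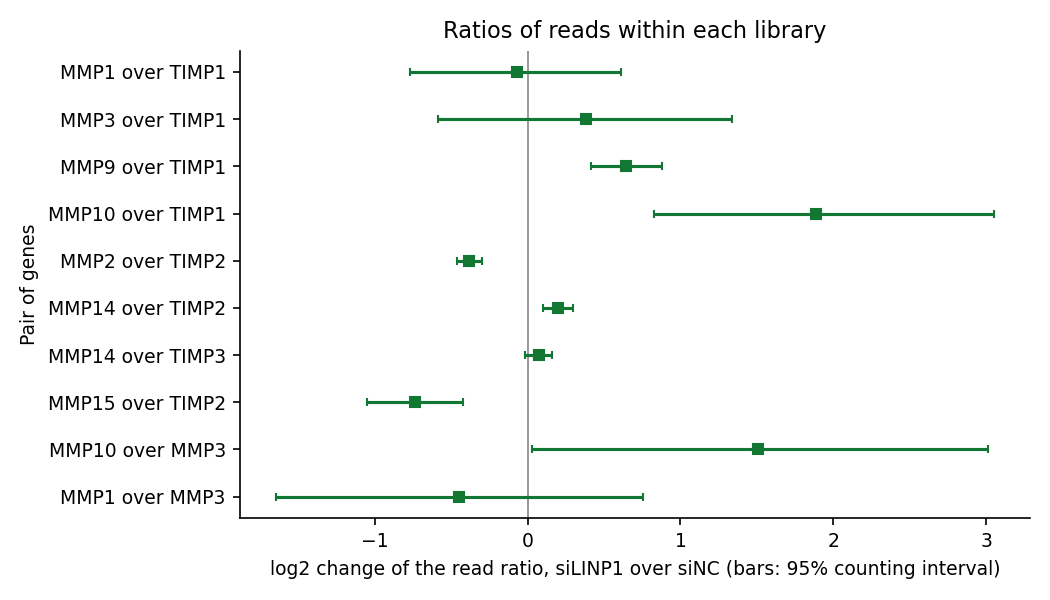
log2 change, from siNC to siLINP1, of the ratio of reads of 2 genes within a library, with bars for the exact conditional 95% counting interval and 1 library per condition. Relative to TIMP1, MMP9 (0.65) and MMP10 (1.89) lie to the right of 0, and relative to TIMP2, MMP2 (-0.38) and MMP15 (-0.73) lie to the left.

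The remaining 17 MMP genes and TIMP4 were mostly low. Of these 18 genes, 10 had fewer than 10 reads, among them MMP26, MMP27 and MMP28 with 0 reads in both libraries. MMP7 and MMP12 had 1 read in each library, MMP13 had 5 and 2 reads, MMP20 had 2 and 0 and MMP21 had 1 and 0. A count of 0 allows up to 3 reads in a library as a one-sided limit. On chromosome 11, the 9 MMP genes of the cluster that holds MMP1, MMP3 and MMP10 summed to 127 siNC reads and 90 siLINP1 reads. Of the 8 genes kept, 1 was higher and 3 were lower by more than 1.5-fold, against the 14.4% and 13.0% of all genes. Their median log2 fold change was -0.34.

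MMP19, a secreted enzyme that cuts basement membrane proteins, stood out among the MMP genes. It had 314 siNC reads and 861 siLINP1 reads, a 3.17-fold higher level (log2 fold change 1.66, 95% interval 1.48 to 1.86), so that its whole interval lay beyond 2-fold. Its level went from 4.92 to 16.5 RPKM, above that of MMP9 in siLINP1. Among 6583 genes whose summed reads lay from 1000 to below 10000, 1.40% were higher by more than 2-fold.

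The other membrane-type genes differed among themselves. MMP17, whose enzyme is held by a lipid anchor, had 358 and 168 reads (log2 fold change -0.88, 95% interval -1.16 to -0.61), close to the value of MMP15. MMP16 had 802 and 1013 reads (log2 fold change 0.55, 95% interval 0.41 to 0.68), and it passed 1.5-fold upward only under scaling by the total count (0.63). MMP24 had 269 and 176 reads (log2 fold change -0.40, 95% interval -0.69 to -0.12). MMP25 had 62 and 47 reads and an interval of -0.77 to 0.38.

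Among the genes for secreted enzymes, MMP8, the neutrophil collagenase, had 36 and 9 reads (log2 fold change -1.79, 95% interval -3.03 to -0.71). MMP11, or stromelysin-3, had 67 and 31 reads (log2 fold change -0.90, 95% interval -1.57 to -0.27). Both counts are small: of 2938 genes with 30 to below 100 summed reads, 21.2% were lower by more than 1.5-fold and 9.12% by more than 2-fold. MMP23A and MMP23B, given here apart from the genes for secreted enzymes, are near-identical copies that can share reads. MMP23A had 0 and 6 reads. MMP23B had 21 and 15 reads, and the pair summed to 21 reads in each library.

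**Figure D4:**
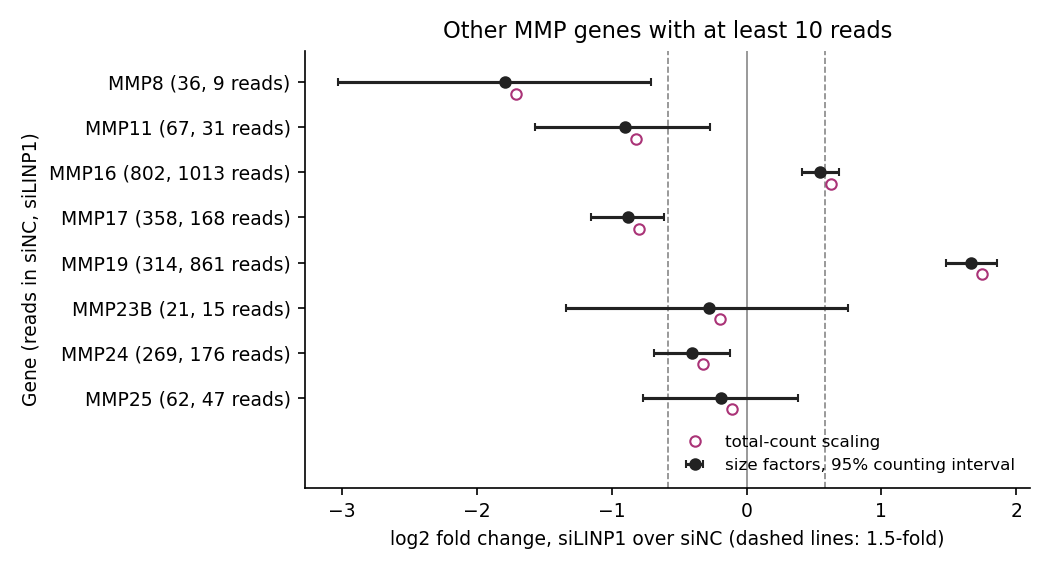
log2 fold change of siLINP1 over siNC for the 8 other MMP genes with at least 10 reads, drawn as for the 10 genes above, with 1 library per condition. MMP19 (1.66) lies beyond the dashed line of 1.5-fold on the right, and MMP8 (-1.79), MMP11 (-0.90) and MMP17 (-0.88) lie beyond it on the left.

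Several groups of genes act beside the MMPs, and 5 lists of them were described in the same way. Of 18 transcription factors that act on MMP promoters, 6 were higher and 1 was lower by more than 1.5-fold, against 14.4% and 13.0% of all genes kept, and their median log2 fold change was 0.22. The AP-1 genes FOS, FOSB and JUNB were the highest. FOS had 112 and 500 reads (log2 fold change 2.37, 95% interval 2.07 to 2.68). FOSB had 118 and 497 reads and 2.28, and JUNB had 3960 and 8530 reads and 1.32. JUND, also an AP-1 gene, had 3347 and 2012 reads and a log2 fold change of -0.52, SP1 had 2408 and 1859 reads and -0.16, and RUNX2 had 183 and 101 reads and -0.65. Of the 5 promoters searched, that of MMP10 alone held a match to TGANTCA. Any base was allowed at the N, and sites that differ by a letter elsewhere were not counted. The promoters of MMP1, MMP2, MMP3, MMP9 and TIMP2 were not searched, so a match to TGANTCA cannot be called particular to MMP10. A link between the AP-1 genes and MMP10 was not tested.

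The related proteases of the ADAM and ADAMTS families showed no common direction. Of 22 genes, 18 were kept, 4 were higher and 4 were lower by more than 1.5-fold, against 14.4% and 13.0% of all genes kept, with a median of -0.03. ADAMTS16 had 89 and 186 reads (log2 fold change 1.27, 95% interval 0.90 to 1.65). ADAM15 had 2020 and 2977 reads (0.77) and ADAM19 had 1663 and 2413 reads (0.75). ADAMTS10 had 252 and 119 reads (-0.87), ADAMTS15 had 382 and 193 reads (-0.78) and ADAMTS7 had 432 and 247 reads (-0.60). ADAMTS7 passed 1.5-fold narrowly under the size factors but had -0.51 under scaling by the total count. Under each other scaling tried, 3 genes of these families were lower by more than 1.5-fold in place of 4.

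The plasminogen system yields plasmin, which can cut the precursors of MMPs. Of its 11 genes, 10 were kept, 1 was higher and 1 was lower by more than 1.5-fold, the median was -0.23, and the shares of all genes kept were 14.4% and 13.0%. PLAUR, the urokinase receptor, had 1275 and 1365 reads (log2 fold change 0.31, 95% interval 0.20 to 0.42). SERPINB2, an inhibitor of plasminogen activators, had 16 and 23 reads (0.73, 95% interval -0.25 to 1.75). PLAT, the tissue plasminogen activator, had 2268 and 1380 reads (log2 fold change -0.51, 95% interval -0.60 to -0.41). S100A10 and ANXA2, which form a plasminogen-binding complex, had log2 fold changes of -0.45 and -0.27. No read of PLG was counted in either library.

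Of 17 activators and membrane regulators, 1 was higher and 1 was lower by more than 1.5-fold, shares below the 14.4% and 13.0% of all genes kept, and the median was -0.19. TFPI2, a secreted inhibitor of plasmin and other serine proteases, had 358 and 722 reads (log2 fold change 1.22, 95% interval 1.04 to 1.41). RECK, a membrane-anchored inhibitor of MMPs, had 313 and 152 reads (log2 fold change -0.83, 95% interval -1.12 to -0.55). PCSK7, a proprotein convertase, had 1101 and 1325 reads (0.48), and SPOCK1 had 804 and 931 reads (0.42). THBS1, or thrombospondin-1, had 28914 and 18414 reads (-0.44), and TSPAN14 had 2949 and 1865 reads (-0.45).

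Of 20 genes for matrix proteins that MMPs can cut, 3 were higher and 2 were lower by more than 1.5-fold, near the 14.4% and 13.0% of all genes kept, and the median was 0.05. COL17A1, a collagen of the hemidesmosome, had 162 and 400 reads (log2 fold change 1.51, 95% interval 1.25 to 1.79). COL4A1, a type IV collagen chain of the basement membrane and a substrate of the gelatinases, had 3230 and 5740 reads, with 1.04 (95% interval 0.98 to 1.10). NID1, which links laminin and type IV collagen, had 4929 and 4935 reads (0.21). Among the lower genes, COL1A1, the substrate of MMP1, had 190 and 79 reads (-1.06, 95% interval -1.45 to -0.67). The small proteoglycan genes DCN and BGN had 29 and 2 reads (-3.65, 95% interval -6.76 to -1.67) and 1086 and 679 reads (-0.47).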

How the data were processed

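Total RNA of siNC- and siLINP1-treated HSC-1 cells was sequenced on an Illumina HiSeq instrument, 1 library each. The authors used Tophat2 for alignment to GRCh37/hg19 and HTSeq for the deposited raw read counts per gene. The submitters' processing notes also name HISAT2, HISAT and Bowtie2. Versions, annotation and strand setting are not given in the sources used here. The deposited RPKM values equal the count divided by the deposited gene length and the library total. A further 12 value columns of the table belong to no sample here and stayed unused.

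Median-of-ratios size factors (1.08 for siNC, 0.930 for siLINP1) scaled the counts, and a gene was kept from 10 reads over both libraries. Log2 fold changes carry no pseudocount and take their 95% interval from the split of reads (Clopper-Pearson). Intervals are exact Poisson for RPKM and exact conditional odds-ratio for ratios. With 1 library per condition no test was possible, so genes were counted past 1.5-fold or 2-fold.

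All MMP and TIMP genes, the synapsin hosts and LINP1 were named, and from each list the 3 highest and 3 lowest genes, ranked on the interval limit closest to 0, except 1 gene that is not reported here. Other overlapping genes, single markers and PLG were named with their values known. The 10 genes and the lists were chosen with earlier results of these data known. Exon overlaps came from GENCODE v44 lifted to GRCh37. Alternatives were total-count scaling, TMM factors, size factors from genes with at least 100 reads, pseudocounts of 1 and 5, and minimums of 1 and 100 reads. The calculations were tested on simulated counts. Tools were R 4.3.3 with edgeR 4.0.16 (TMM factors only), scipy 1.17.1, pandas 2.3.3, numpy 2.4.6 and matplotlib 3.10.9 under Python 3.11.15.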

Additional observations from a re-analysis of the deposited data

How the results depend on the processing

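No paired analysis was possible because each condition has 1 library, and for the same reason no library could be left out. Over 51 results and 271 recomputed values, 245 stayed within an interval or within 1.5 times the count, 26 moved, and 0 changed sign after having passed a limit. The interval was the counting interval for genes and ratios. For list medians it came from the spread of the genes in the list and does not measure counting error. With at least 100 reads, MMP10, MMP1 and MMP3 are left out, so 0 of the 10 genes were higher past 1.5-fold and 0 past 2-fold. The same minimum left 1 of the other MMP genes and 1 matrix substrate lower past 1.5-fold, and in the plasminogen system 0 higher and 0 lower. With at least 1 read, 3 of the other MMP genes and TIMP4 were higher past 1.5-fold. Under scaling by the total count, 2 other MMP genes were higher past 1.5-fold, 0 transcription factors were lower, and the interval lay above 0 for 4 of the 10 genes in place of 2, an alternative chosen after seeing the data. A pseudocount of 5 left 0 genes of the plasminogen system higher past 1.5-fold.

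Over all genes, a minimum of 1 read gave 4574 higher and 3949 lower past 1.5-fold, and 2522 and 1849 past 2-fold. A minimum of 100 reads gave 1163 and 903 past 1.5-fold, and 362 and 148 past 2-fold. A pseudocount of 5 gave 824 higher and 510 lower past 2-fold. Fewer or more genes tested, or the damping of low counts, changed these numbers by construction. Depth limits MMP1, MMP3 and MMP10, which had 80, 41 and 38 reads in both libraries together.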
